A study of Mus musculus with 65 samples.

Results

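The walls of spinal cord vessels were followed here through 10 genes of the vascular basement membrane and of its mural and endothelial cells, Col4a1, Col4a2, Col18a1, Lamb1, Lamc1, Fn1, Acta2, Myl9, Pdgfrb and Nos3. All features (spotted cDNA clones) whose platform annotation gave 1 of these symbols were taken, which found 15 of the 8448 features of the array and 10 of its 4209 named genes. No feature with several symbols included one of them. Spinal cord RNA of 65 male and female C57BL/6 mice was measured, 1 array for each mouse, and the labels name no allele or agent. Mice were fed ad libitum (AL, 40 mice) or were kept on caloric restriction (CR, 25 mice), a reduced ration begun in young adulthood. Juvenile mice of 17 to 44 days (n = 10) were all on the AL diet. The adults were 6 months old (169 to 194 days, 10 AL and 8 CR mice), 16 months old (472 to 499 days, 10 AL and 10 CR mice) or 24 months old (673 to 743 days, 10 AL and 7 CR mice). With sex (31 males and 34 females) this made 14 groups. The whole cord was homogenized, so that fewer vessels or mural cells and less RNA in each of them cannot be told apart.

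In a vessel of the central nervous system, endothelial cells and the pericytes or smooth muscle cells around them share a basement membrane. Its scaffold is a network of collagen IV and a network of laminin, tied together by proteoglycans and by receptors of the cell surface. Pericytes are held to the endothelium through PDGF signaling, smooth muscle of arterioles contracts through actin and myosin, and nitric oxide from the endothelium relaxes that muscle. Most vascular basement membrane is laid down during development and is then slowly renewed.

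The deposited values are Z scores. Each is the distance of a feature from the mean of its own array in units of the SD over all features of that array, and differences are therefore given in Z and not as folds. Spots differ in the DNA they carry, so the Z of one clone was not read against that of another as a level of RNA. Of the 65 arrays, 3 stood apart from all others (arrays 31 and 32, which were CR mice of 6 months and of either sex, and array 33, from an AL male of that age). The other 62 fell into a first run of 41 arrays and a second run of 21 arrays along the first principal component, which held 36.0% of the variance. The labels do not name these runs. The second run held 1 of 10 AL mice and 0 of 8 CR mice at 6 months, but 6 of 10 AL mice and 3 of 7 CR mice at 24 months, so that age and run were unequally mixed. Differences are therefore given for all arrays and, where it matters, adjusted for run, which means run as a covariate among the 62 arrays of the 2 runs.

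No change of the 15 features with age, diet or sex passed the test. In limma fits of the 14 group means, with Benjamini-Hochberg adjustment over all 8448 features, 0 of the 15 passed an adjusted p of 0.05 in any of 15 comparisons or in the F test over the groups. Few features of the array did: 0.13% from juvenile to 6 months, 0.0237% from 6 to 16 months, 0% from 16 to 24 months and 0.071% from 6 to 24 months in AL mice. In CR mice the shares were 0%, 0% and 0.0237% for the same 3 adult steps. For CR against AL they were 0.0237% at 6 months, 0% at 16 months, 0% at 24 months and 0.0237% over the 3 ages. Males against females, the diet difference of the change from 6 to 24 months, and the sex differences of that change and of the CR effect gave 0% each, and the F test gave 0.166%. 

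At an unadjusted p under 0.05, AL mice had 1 of the 15 features from juvenile to 6 months (2.56% of all features), 2 from 6 to 16 months (13.3%), 1 from 16 to 24 months (1.99%) and 2 from 6 to 24 months (12.8%). CR mice had 1 (6.9%), 1 (5.16%) and 0 (8.71%) over the same adult steps. CR against AL gave 0 at 6 months (7.77%), 0 at 16 months (0.746%), 1 at 24 months (7.42%) and 2 over the 3 ages (10.6%). The sexes gave 1 (3.44%), the diet difference of the change from 6 to 24 months 1 (1.56%), the sex differences of that change and of the CR effect 0 each (1.14% and 3.15%), and the F test 1 (2.62%). With 15 features, 1 feature is 6.67%, so that counts of 1 or 2 are too few to be read against these shares. The study's own selection, by Z score, z-ratio and unadjusted p, took 0 of the 15 in each of the 12 comparisons in which it was run, and between 0.201% and 3.36% of all features, so that 0 of 15 says little of these genes. The study asked for an average intensity above 0, which was read here as a mean Z above 0. On that reading Nos3, Col4a2 and both Lamb1 features were set aside before any test. Nos3 met the other conditions from 6 to 16 and from 6 to 24 months in AL mice and between the sexes.

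For most of the features, though not for most of the genes on all their features, the group means spanned less than the spread between mice. From 6 to 24 months in AL mice the 15 differences ran from -0.311 to 0.236 with a median of 0.045, against -0.002 for all features, and their SEs ran from 0.0353 to 0.180. Means of the 7 combinations of age and diet spanned from 0.05 Z for a Lamc1 feature to 0.332 Z for Nos3, and the span was below the mean SD within a group in 9 of 15 features. The span exceeded that SD for Acta2, Fn1, Nos3, Col4a1 feature 14494, Lamb1 feature 16879 and Lamc1 feature 8807. These SDs also hold the difference between the array runs. For Col4a2 the mean SD within a group was 0.375, against a residual SD of 0.142 with run as a covariate among 62 arrays. When the 7 means of a feature were put in order, no neighbours differed by more than the smallest SD of any group, in any of the 15 features.

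**Figure D1:**
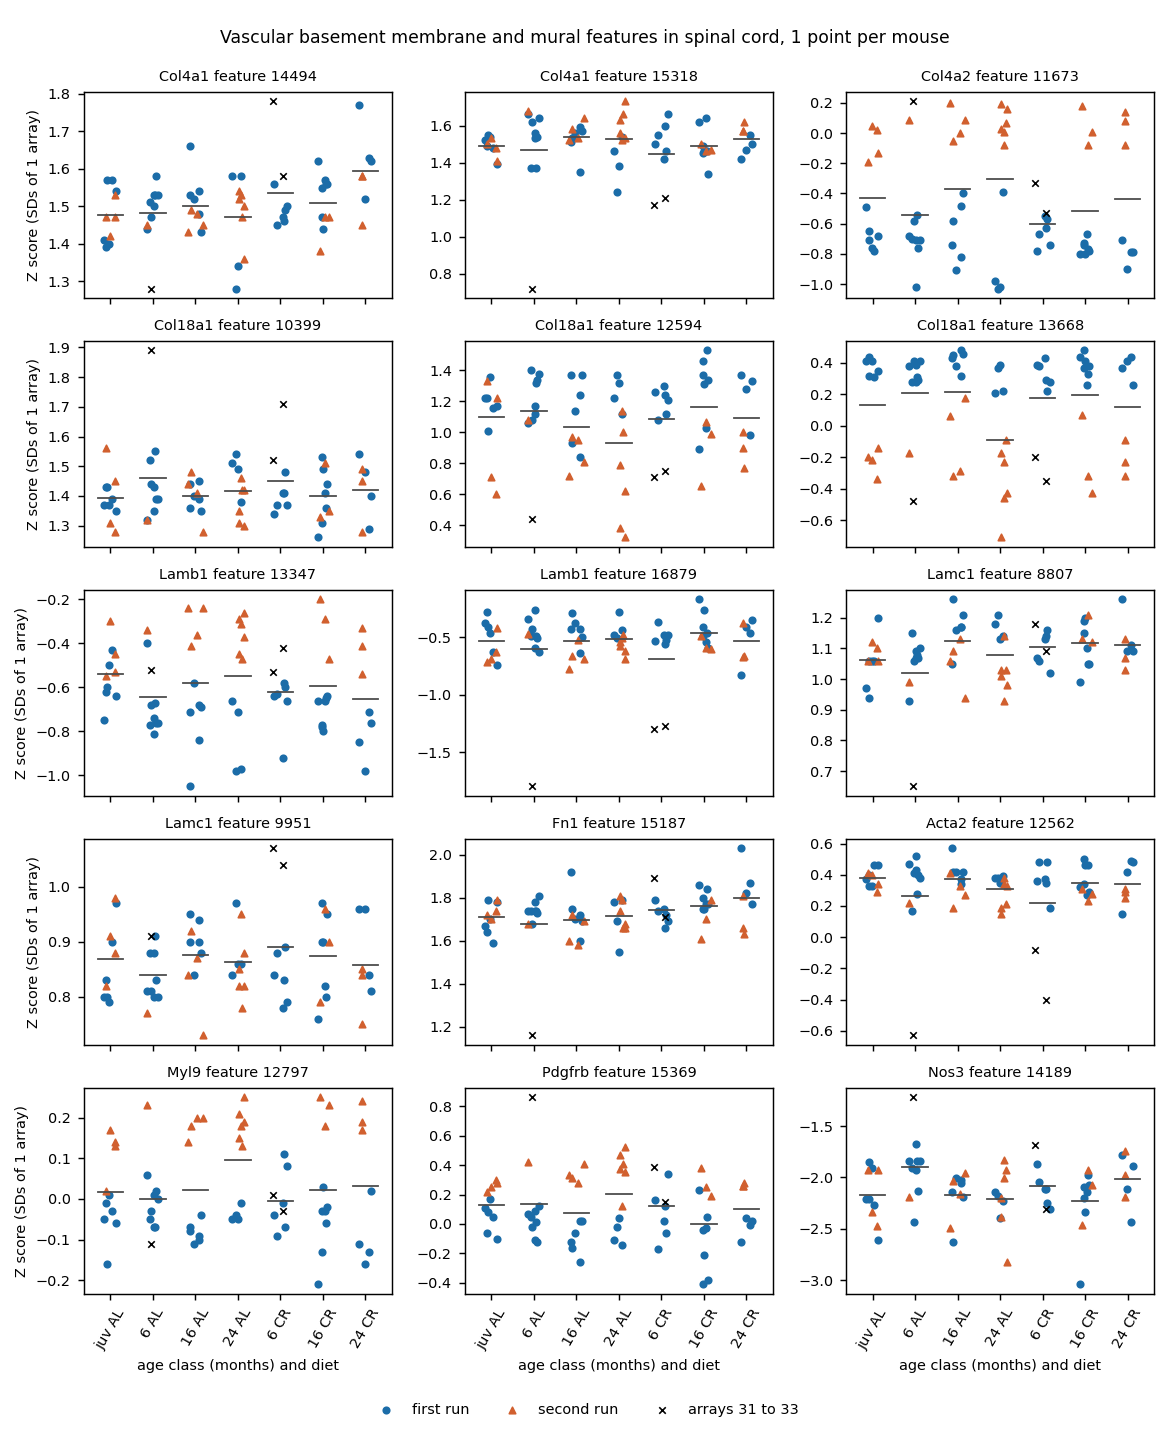
Z score of each of the 15 features (vertical axes, in SDs of 1 array, with a different range in each panel) in the juvenile, 6, 16 and 24 month AL groups and the 6, 16 and 24 month CR groups. Each point is 1 mouse, horizontal bars are group means, colours mark the 2 array runs and crosses mark arrays 31 to 33. The points of Col4a2 and of Col18a1 feature 13668 part by run in every group that holds both runs, while the group means of all features lie close together.

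Collagen IV is the defining collagen of basement membranes, and its most common trimer holds chains of both Col4a1 and Col4a2. The 2 genes lie head to head on mouse chromosome 8 (RefSeq, GRCm38.p6). Their start sites are 21 bases apart on opposite strands, Col4a1 on the minus strand at 11312826 and Col4a2 on the plus strand at 11312805. In these annotations the transcribed stretches overlap between the start sites, with no gap between them. The 2 genes are commonly described as sharing a promoter, which is why the Col4a2 window is shown. Its bases before the Col4a2 start lie inside the annotated Col4a1 gene, beyond the Col4a1 start. The window runs from 250 bases before the Col4a2 start to 50 bases from it, with the letters CCAAT in capitals, and it overlaps the like window of Col4a1 by 78 bases.
Col4a2, chr8:11312555-11312854 (+): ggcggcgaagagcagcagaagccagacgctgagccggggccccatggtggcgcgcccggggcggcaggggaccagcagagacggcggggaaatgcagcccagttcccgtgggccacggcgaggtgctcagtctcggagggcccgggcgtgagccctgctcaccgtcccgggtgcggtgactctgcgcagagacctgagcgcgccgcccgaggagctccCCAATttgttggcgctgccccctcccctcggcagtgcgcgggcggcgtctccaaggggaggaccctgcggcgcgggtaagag
CCAAT stands 32 bases before the Col4a2 start, and so beyond the Col4a1 start in the direction in which Col4a1 is transcribed. The letters CCAAT occur on either strand in 37.4% of the 32851 RefSeq promoter windows of this length, and GGGCGG, found 3 times in this window over both strands, in 35.7%.

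Col4a1 was measured by 2 features, and 1 of them had the smallest p of any member for CR against AL. Feature 14494 had a lowest, median and highest Z of 1.28, 1.51 and 1.58 in AL mice of 24 months, and of 1.45, 1.58 and 1.77 in CR mice of that age. The groups overlapped, with 6 of 7 CR mice above the AL mean. CR minus AL was 0.131 (SE 0.0455, unadjusted p = 0.00571, limma adjusted p = 0.634), where both sexes weigh equally. Adjusted for run, the difference was 0.124 (SE 0.0389, adjusted p = 0.104), and within the runs it was 0.190 in the first and 0.050 in the second. Over the 3 ages CR minus AL was 0.0686 (SE 0.0252, adjusted p = 0.435), a value that was 0.0419 without arrays 31 to 33. It thus did not pass the test in any of these fits.

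The second Col4a1 feature, 15318, had nearly equal means in the 2 diets at 24 months. Its means were 1.53 ± 0.141 (SD, n = 10) in AL and 1.53 ± 0.069 (SD, n = 7) in CR mice of 24 months. Over the 3 ages CR minus AL was -0.0256 with a 95% interval from -0.107 to 0.0555, and the interval at 24 months was -0.147 to 0.146. Across mice no correlation of the 2 features passed the adjustment. Pearson's r was 0.177 in the first run (n = 41, permutation p = 0.267) and -0.188 in the second (n = 21, permutation p = 0.412), with Spearman's rho of 0.0608 (p = 0.705) and -0.0988 (p = 0.668).

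Col4a2, the partner chain, varied mainly with the array run. Its feature had a mean of -0.720 ± 0.152 (SD, n = 41) in the first run and 0.0338 ± 0.109 (SD, n = 21) in the second. The highest first-run mouse was at -0.39 and the lowest second-run mouse at -0.19, so the runs did not overlap. The runs were split on these same arrays, and run differences are therefore given as a description with no test. In AL mice the lowest, median and highest Z were -1.02, -0.69 and 0.21 at 6 months and -1.03, -0.035 and 0.19 at 24 months. The difference of 0.236 (SE 0.180, adjusted p = 0.559) became -0.0472 (SE 0.0671, adjusted p = 0.997) with run as a covariate. Within the runs the difference was -0.1425 and -0.0267, the second run holding 1 mouse of 6 months. No correlation of Col4a2 with a Col4a1 feature across mice passed the adjustment. Its r with feature 14494 was 0.0277 and -0.341 in the 2 runs, and with feature 15318 it was 0.158 and 0.424, none below an adjusted permutation p of 0.147 over 16 relations. The largest, 0.424 in the 21 mice of the second run, had an unadjusted permutation p of 0.055 and was 0.479 without the 2 farthest mice.

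Col18a1 encodes collagen XVIII, a proteoglycan of vascular and epithelial basement membranes whose end fragment is endostatin. Its 3 features had means of 1.42, 1.08 and 0.138 over the 65 mice. Feature 13668 had a lowest, median and highest Z of -0.48, 0.30 and 0.41 in AL mice of 6 months, -0.32, 0.35 and 0.48 at 16 months, and -0.71, -0.13 and 0.39 at 24 months. Old AL mice were thus the lowest group, overlapping all others. The step from 16 to 24 months was -0.305 (SE 0.148, adjusted p = 0.959), and it was -0.187 (SE 0.058, adjusted p = 0.523) with run as a covariate. The difference from 6 to 24 months was -0.300 (SE 0.148, adjusted p = 0.388), and it was -0.0843 with run as a covariate. This feature, too, parted by run without overlap, with a lowest value of 0.21 in the first run and a highest of 0.18 in the second, and 6 of the 10 old AL mice were in the second run.

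The other Col18a1 features, like 13668, were not called over the same step. Feature 10399 differed by -0.042 from 6 to 24 months in AL mice, with a 95% interval from -0.140 to 0.0564. This left out the -0.300 of feature 13668 over all arrays but contained the value of that feature with run as a covariate, which comes from another fit. The sign for feature 10399 rested on array 33: without it the AL mean was 1.412 at 6 months and 1.418 at 24 months. The difference of feature 12594 was -0.211 with an interval from -0.463 to 0.0407, which contained -0.300. Without arrays 31 to 33 it was -0.293 (adjusted p = 0.241), and with run as a covariate -0.128. Its mean was 1.22 ± 0.159 in the first run (SD, n = 41) and 0.858 ± 0.260 in the second (SD, n = 21). Features 10399 and 12594 correlated across mice at r = 0.592 in the second run (adjusted permutation p = 0.0325; rho 0.588, adjusted p = 0.0461; r = 0.462 without the 2 farthest mice). In the first run r was 0.384 (adjusted permutation p = 0.054; rho 0.326, adjusted p = 0.121). Feature 13668 correlated with neither in a way that passed the adjustment, its r with feature 10399 being -0.338 and -0.137 in the 2 runs.

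Laminins are trimers of an alpha, a beta and a gamma chain, and Lamb1 and Lamc1 supply the beta and gamma chains of the main vascular forms. Lamc1, on 2 features, was among the steadiest of the genes. Means of feature 8807 over the 7 combinations of age and diet lay between 1.02 and 1.12, and those of feature 9951 between 0.84 and 0.89. Feature 8807 differed by 0.105 from 6 to 16 months in AL mice (SE 0.044, adjusted p = 0.344), where 1 mouse, array 33, lay at 0.65 and the other AL mice of 6 months between 0.93 and 1.15. Without arrays 31 to 33 this difference was 0.0605. The 2 Lamc1 features moved together across mice, with r = 0.618 in the first run (adjusted permutation p = 0.00064; rho 0.586, adjusted p = 0.0024; r = 0.601 without the 2 farthest mice) and 0.578 in the second (adjusted permutation p = 0.0325; rho 0.514, adjusted p = 0.0764; r = 0.448 without the 2 farthest mice). Both stand at position 7 of a repeat of 22 feature numbers that runs through the array, and its part in their correlation was not tested.

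Lamb1 also had 2 features, with means of -0.593 and -0.549. Feature 13347 was -0.714 ± 0.139 (SD, n = 41) in the first run and -0.372 ± 0.105 (SD, n = 21) in the second. From 6 to 24 months in AL mice it differed by 0.098 (SE 0.0956, adjusted p = 0.65), and by -0.0561 with run as a covariate, and so turned sign. Feature 16879 rested on the arrays that stood apart: CR mice of 6 months lay between -1.30 and -0.37 with a median of -0.525, and CR mice of 16 months between -0.60 and -0.17 with a median of -0.49. The difference of 0.250 (SE 0.122, adjusted p = 0.715) was 0.0438 without arrays 31 to 33, of which the 2 CR mice were at -1.30 and -1.27. The 2 Lamb1 features had r = -0.0882 and -0.340 in the 2 runs (permutation p = 0.582 and 0.132).

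Fn1 encodes fibronectin, a matrix glycoprotein of vessel walls and of plasma. In AL mice its lowest, median and highest Z were 1.59, 1.71 and 1.79 in juveniles, 1.16, 1.74 and 1.81 at 6 months, 1.58, 1.70 and 1.92 at 16 months, and 1.55, 1.72 and 1.81 at 24 months. CR mice lay at 1.66, 1.73 and 1.89 at 6 months, 1.61, 1.77 and 1.86 at 16 months, and 1.63, 1.81 and 2.03 at 24 months. All groups overlapped. From 6 to 24 months the AL mice differed by 0.035 over all arrays, with a 95% interval from -0.0652 to 0.135. The sign rested on array 33: without it the AL mean was 1.738 at 6 months and 1.715 at 24 months. Over the 3 ages CR minus AL was 0.0768 (SE 0.0307, unadjusted p = 0.0154, limma adjusted p = 0.435). The difference was 0.0486 without arrays 31 to 33 and 0.0427 with run as a covariate (adjusted p = 0.81), and it did not pass the test. Of all AL mice of 6 months, array 33 alone was under 1.68.

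**Figure D2:**
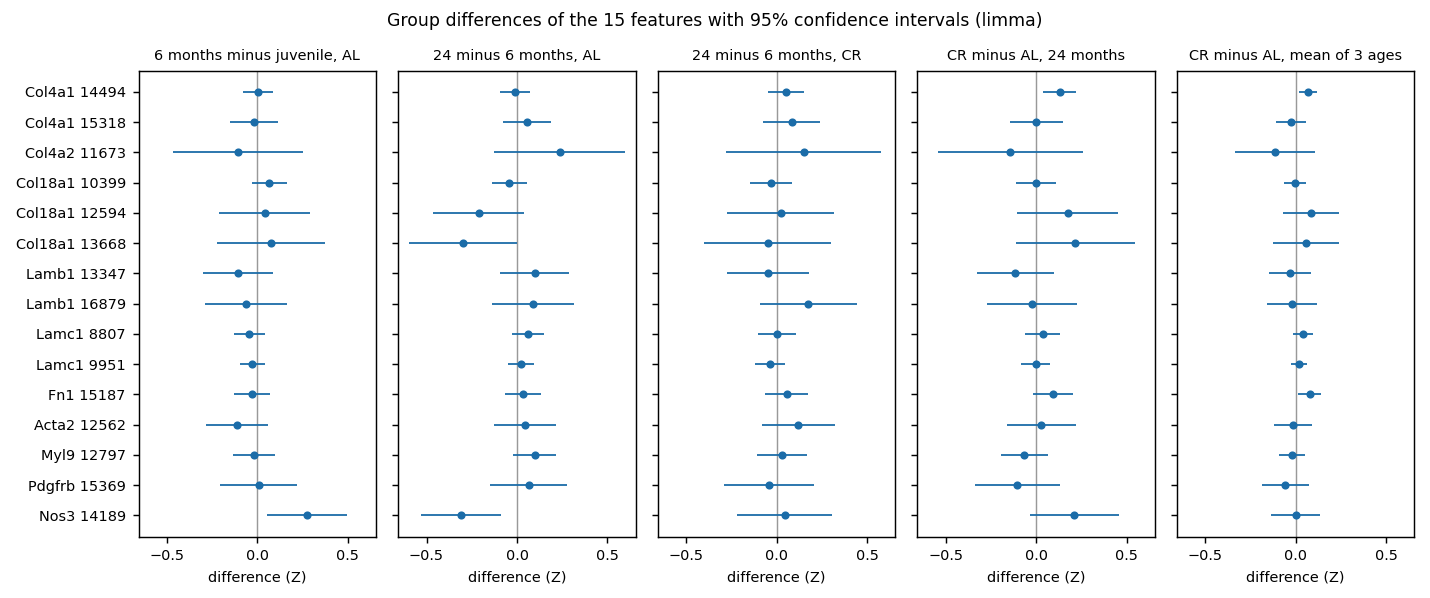
Difference in Z (horizontal axes) of the 15 features in 5 comparisons of the limma fit over all 65 arrays, with 95% confidence intervals and a grey line at 0. Intervals that leave out 0 are those of Nos3 in both AL steps shown, of Col18a1 feature 13668 from 6 to 24 months in AL mice, and, for CR against AL, of Col4a1 feature 14494 in both panels and of Fn1 over the 3 ages. None passed the adjustment over 8448 features.

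Mural cells were represented by Acta2 and Myl9, the actin and the regulatory myosin light chain of smooth muscle, and by Pdgfrb, the PDGF receptor of pericytes. Acta2 means lay between 0.219 and 0.379 in the 7 groups, and the SDs of the 2 groups of 6 months (0.333 and 0.309) exceeded those of the others (0.057 to 0.127). Those groups held the arrays that stood apart, at -0.08, -0.40 and -0.63. Without them the groups of 6 months were at 0.364 and 0.372. In AL mice Acta2 differed by 0.045 from 6 to 24 months over all arrays, with a 95% interval from -0.127 to 0.217. The sign rested on array 33: without it the AL mean was 0.364 at 6 months and 0.31 at 24 months.

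Myl9 and Pdgfrb varied with the run. Myl9 was -0.0468 ± 0.0644 (SD, n = 41) in the first and 0.18 ± 0.0525 (SD, n = 21) in the second run. Pdgfrb was -0.022 ± 0.147 (SD, n = 41) in the first and 0.317 ± 0.0961 (SD, n = 21) in the second. In AL mice from 6 to 24 months Myl9 differed by 0.097 (SE 0.0581, adjusted p = 0.457) and Pdgfrb by 0.064 (SE 0.106, adjusted p = 0.798), and both turned sign with run as a covariate, to -0.0326 and -0.0243. The highest Pdgfrb value, 0.86, was that of array 33. Across mice r was -0.0198 for Acta2 and Myl9, -0.187 for Acta2 and Pdgfrb, and 0.152 for Myl9 and Pdgfrb over 62 mice, after removal of group and run means, as a description of spots from the same arrays.

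Smooth muscle genes are commonly switched on through a CArG box, the site of serum response factor. The Myl9 window is shown because it holds an exact match, in capitals, 161 bases before the start.
Myl9, chr2:156775214-156775513 (+): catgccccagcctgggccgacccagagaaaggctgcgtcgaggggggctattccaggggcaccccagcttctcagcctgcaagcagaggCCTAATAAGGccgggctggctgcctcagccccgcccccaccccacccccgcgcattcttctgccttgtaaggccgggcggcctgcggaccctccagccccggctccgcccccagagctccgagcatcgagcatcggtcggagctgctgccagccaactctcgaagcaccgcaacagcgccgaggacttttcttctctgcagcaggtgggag
An exact match (CC, 6 bases of A or T, GG) occurs in 1.63% of the 32851 windows, and the Acta2 window held none. CArG boxes that depart from this pattern were not searched for, so this does not show that Acta2 lacks one. The match is a description of the reference, and RefSeq windows were matched for 6 of the 10 genes.

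Nos3, endothelial nitric oxide synthase, had the widest span of group means. Its feature lay in the low tail of the array, with a mean of -2.12 over 65 mice and 2.38% of features lower, and whether such a signal is above background cannot be read from Z scores. In AL mice the lowest, median and highest Z were -2.61, -2.21 and -1.85 in juveniles, -2.43, -1.88 and -1.22 at 6 months, -2.63, -2.10 and -1.96 at 16 months, and -2.82, -2.19 and -1.83 at 24 months. CR mice lay at -2.31, -2.11 and -1.68 at 6 months, at -3.04, -2.12 and -1.93 at 16 months, and at -2.43, -1.98 and -1.74 at 24 months. AL mice of 6 months were thus the highest group, and all groups overlapped.

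None of the Nos3 differences passed the test. From juvenile to 6 months the AL mice differed by 0.273 (SE 0.110, adjusted p = 0.986), from 6 to 16 months by -0.268 (SE 0.110, adjusted p = 0.344), and from 6 to 24 months by -0.311 (SE 0.110, adjusted p = 0.328). These 3 share the mice of 6 months, of which array 33 was the highest at -1.22. Adjusted for run, the change from 6 to 24 months was -0.268 (SE 0.113, adjusted p = 0.997), and within the runs it was -0.286 and -0.005, the second again with 1 mouse of 6 months. In CR mice the means were -2.09 ± 0.221 (SD, n = 8) at 6 and -2.02 ± 0.245 (SD, n = 7) at 24 months. The change differed between the diets by 0.356 (SE 0.171, unadjusted p = 0.042, limma adjusted p = 0.999). Among adults, males minus females was 0.174 (SE 0.0678, adjusted p = 0.984), with 21 of 26 males above the female mean. Of the arrays that stood apart, the males 31 and 33 were at -1.68 and -1.22 and the female 32 at -2.31. Without them and with run as a covariate, 0 of the 15 features had an unadjusted limma p under 0.05 between the sexes. The F test over the 14 groups gave an unadjusted p of 0.0112 and an adjusted p of 1.00.

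**Figure D3:**
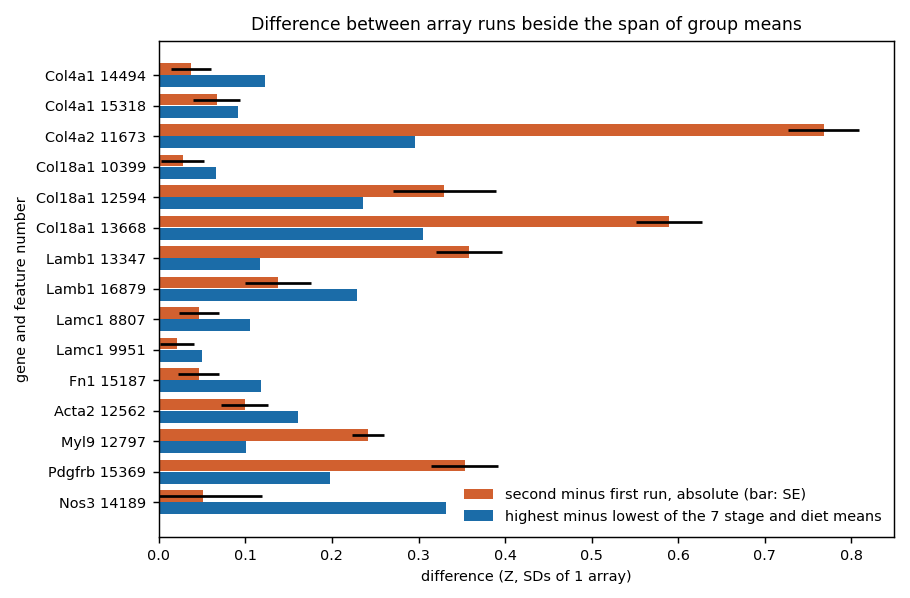
For each of the 15 features, the size of the difference between array runs (orange bars, second minus first run as an absolute value, with its SE) beside the span between the highest and lowest of the 7 means of age and diet (blue bars), both in Z. The run difference was the larger for Col4a2, Col18a1 features 12594 and 13668, Lamb1 feature 13347, Myl9 and Pdgfrb, and the smaller for the other 9 features.

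The wider vessel wall was described by 13 lists of other genes, of which 79 of 264 were measured. No feature of any list was called in any of the 15 comparisons. From 6 to 24 months in AL mice, the 12 features of other basement membrane genes had a median difference of 0.087 (0.00409 with run as a covariate), against -0.002 over all features, and 3 had an unadjusted p under 0.05, all higher, beside 12.8% of all features. At the same threshold matrix receptors had 1 higher feature, smooth muscle and pericyte genes 1 higher and 1 lower, PDGF and TGF-beta signaling 2 higher, meninges and fibroblasts 1 higher and 1 lower, blood 1 higher, and the other lists 0. The smallest p were those of Tinagl1, a laminin-binding matrix protein, and of Sparc, a collagen-binding protein. Tinagl1 differed by 0.465 Z (limma adjusted p = 0.356) and Sparc by 0.125 Z (limma adjusted p = 0.355). The 8 features of collagen IV assembly had a median of 0.027, led by the lysyl hydroxylase Plod1 at 0.18, followed by the prolyl hydroxylase subunit P4hb at 0.027. The 7 features of matrix receptors had a median of -0.003, led by the syndecan Sdc2 at 0.314 on 1 of 2 features (the other at 0.006) and the integrin chain Itga3 at 0.307. Proteases and inhibitors (6 features) had a median of 0.021, with Timp2 at 0.174 and 0.07 on its 2 features. With run as a covariate the medians were 0.0361 for collagen IV assembly, -0.0364 for matrix receptors and -0.0134 for proteases and inhibitors. The values of single genes are given over all arrays, without adjustment for run.

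Other genes of mural, endothelial and signaling lists were summarised in the same way. Smooth muscle and pericyte genes (11 features) had a median of -0.029 from 6 to 24 months in AL mice, with the tropomyosin Tpm2 at -0.392 (SE 0.159, adjusted p = 0.351) and the GTPase Rhoa at 0.345 (SE 0.149, adjusted p = 0.351). Endothelial genes (6 features) had a median of 0.0105, with the transferrin receptor Tfrc at -0.287 and the tight junction protein Tjp1 at 0.066. Nitric oxide signaling (8 features) had a median of 0.0295, with the guanylate cyclase subunit Gucy1a1 at 0.096 and the chaperone Hsp90aa1 at 0.179. PDGF and TGF-beta signaling (9 features) had a median of 0.077, with Ltbp1, which binds latent TGF-beta, at 0.307 and the ligand Pdgfa at 0.219. With run as a covariate the medians were -0.0307 for smooth muscle and pericyte genes and 0.00821 for endothelial genes. They were 0.00797 for nitric oxide signaling and 0.0430 for PDGF and TGF-beta signaling. Here, too, single genes are given without adjustment for run. For CR against AL over the 3 ages the medians of these 8 lists lay between -0.0133 for other basement membrane genes and 0.0518 for other smooth muscle and pericyte genes, against -0.00151 for all features. Of the genes listed, 6 of 42 endothelial and 8 of 31 smooth muscle and pericyte genes had a named feature. Pecam1, Cdh5, Rgs5 and Myh11 were listed but are not described here. A Z score gives the place of a feature within its array and does not show whether a cell type was present.

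Cells that a dissected cord can carry along were described in the same way. From 6 to 24 months in AL mice, meningeal and fibroblast genes (17 features of 12 genes) had a median difference of 0.023, with Aldh1a2, of retinoic acid synthesis, at 0.237 and Col6a2, a collagen VI chain, at -0.133. Blood genes (17 features of 4 genes, 15 of them hemoglobin) had a median of 0.086, with the red cell anion exchanger Slc4a1 at 0.273 and a Hba-a1 feature at 0.182, and -0.0162 with run as a covariate. Skeletal muscle was represented by Mylpf (-0.091), Schwann cells by Pmp22 (-0.092), and cells of the cord itself by 2 features each of the neurofilament Nefl (mean Z 1.07 and 0.896) and of the glial transporter Slc1a3 (mean Z -0.388 and -0.78), the latter with differences of 0.126 and -0.081. The part of any of these cells in the values of the 10 genes was not tested.

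The features most like each member across mice were often its neighbours on the array. For each of the 15 features, the 3 named features with the highest Pearson r were found over 62 mice, after removal of group and run means, and r lay between 0.492 and 0.943. Of these 45, 0 were features of the 10 genes. 19 of them (42.2%) lay within 50 feature numbers of the member, against 1.16% of all named features, and 13 (28.9%) stood at the same position of the 22-feature repeat, against 4.56% of all. Fn1 was most like Anapc1 (r = 0.870), which lies 22 feature numbers away, Lamc1 feature 8807 was most like Ppcdc (r = 0.851), also 22 away, and Col4a1 feature 14494 was most like Ptgis (r = 0.865). Among the 105 pairs of members r ran from -0.634 to 0.663 with a median of -0.0429. The highest was that of Col4a1 feature 14494 and Fn1, the 2 features with an unadjusted p under 0.05 for CR against AL over the 3 ages. These correlations are a description, and all points share arrays and spots.

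**Figure D4:**
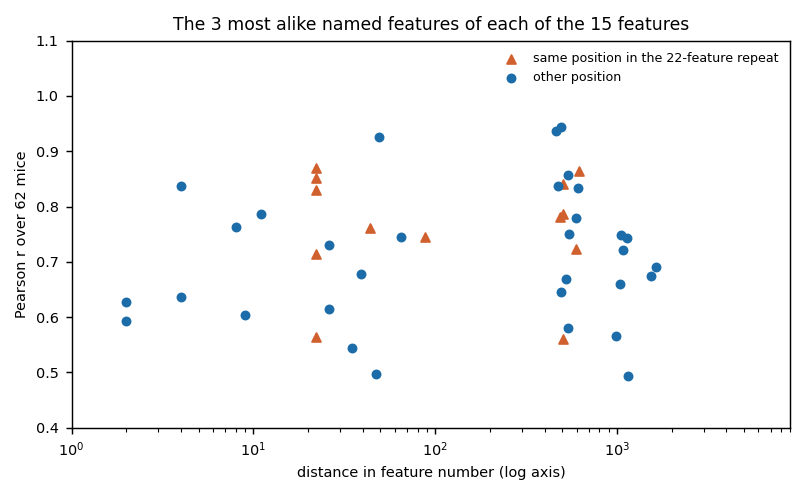
Pearson r over 62 mice (vertical axis) of each of the 15 features with its 3 most alike named features, against their distance in feature number (horizontal axis, logarithmic). Each point is 1 pair of features and triangles mark pairs at the same position of the 22-feature repeat; 19 of the 45 points lie within a distance of 50.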

How the data were processed

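Radioactive cDNA of each spinal cord was hybridized to the B filter of the NIA 17K mouse cDNA array, a nylon membrane, and spot intensities were read from imaging screens with ArrayPro. The authors turned them into a Z score per array and deposited this score. The sources used here do not give the log base or the background treatment. Changes shared by most features drop out of such values. There is no depth to report, and precision depends on how many arrays were made and on the spread of a feature between them.

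Groups were taken from the labels. The design text gives 67 mice, of which 65 were analysed. The description of 1 array (27, an AL male of 24 months) differed from its title, and the title was followed. Features were named through the platform annotation (4875 of 8448 with 1 symbol).

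All 65 arrays entered 1 limma fit (version 3.58.1, R 4.3.3) of 14 group means with 51 residual degrees of freedom, both sexes weighted equally, and an adjusted p of 0.05 as threshold. The script was tested on simulated data. Correlations within runs used permutation tests (scipy 1.17.1, two-sided). All features of the 10 genes were named, and of each list the 2 features of smallest p in the change from 6 to 24 months in AL mice. Members and lists were chosen with earlier results of these data known. The study's selection was run as mean Z above 0, z-ratio of at least 1.5 in size and unadjusted p under 0.05 in the methods' t-test, and its ANOVA was not run. Alternatives were leaving out arrays 31 to 33, run as a covariate, array weights, quantile normalization, centring on filter positions, features of mean Z above 0, averaging per gene, leaving out array 27, leaving out each mouse and, chosen after seeing the data, the set of array numbers as a block.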

Additional observations from a re-analysis of the deposited data

Results flagged for a closer look

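Within 7 groups of age and diet, 105 sets of values (15 features each) were screened for a mouse whose gap to the nearest other exceeded Dixon's critical value, and 15 stood out, where chance gives about 1 in 20. Of these, 9 were from arrays 31 to 33. The rest were about as many as that rate gives over 105 sets, and they are listed as a description only. The rate assumes 1 normal spread in a group, whereas most groups held both runs. Array 33, an AL male of 6 months, was the lowest of its 10 mice for Lamc1 feature 8807 (0.65), Acta2 (-0.63), Col18a1 feature 12594 (0.44), Col4a1 features 14494 (1.28) and 15318 (0.72), Fn1 (1.16) and Lamb1 feature 16879 (-1.80), and the highest for Col18a1 feature 10399 (1.89). Array 31, a CR male of 6 months, was the highest of its group for Col4a1 feature 14494 (1.78).

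In AL mice of 16 months, array 9, a male, was the highest for Col4a1 feature 14494 (1.66) and Fn1 (1.92). In the same group, array 10, a female, was the lowest for Col4a1 feature 15318 (1.35), and array 24, a female, was the lowest for Lamc1 feature 9951 (0.73). Array 34, an AL female of 6 months and the only second-run mouse of that group, was the highest for Myl9 (0.23). Array 62, a CR female of 16 months, was the lowest for Nos3 (-3.04).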

How the results depend on the processing

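The count of member features called was 0 in all 16 tests under each alternative that could be run, except for array weights. With array weights, 6 of the 15 features were called from 6 to 24 months in AL mice, beside 1829 features of the whole array (21.7%): Col4a2 at 0.533, Col18a1 features 12594 and 13668 at -0.384 and -0.464, Lamb1 feature 13347 at 0.226, Myl9 at 0.139 and Pdgfrb at 0.232. These 6 are the features whose run difference exceeded the span of their group means. The weights ran from 0.000225 for array 33 to 3.30, and their estimation stopped short of its tolerance. Leaving out each mouse in turn gave counts from 0 to 0. No difference named at an unadjusted p under 0.05 reversed under any alternative. The labels give no replicate numbers, but the array numbers run through the groups in 5 sets. With the set as a block, an alternative chosen after seeing the data, 0 member features were called in each of the 16 tests. Every set held a male and a female of both AL groups of 6 and 24 months, so the block could not change that difference. It was -0.300 for Col18a1 feature 13668 (adjusted p = 0.0956) and -0.311 for Nos3 (adjusted p = 0.0962). The sets cut across the runs, and the block therefore did not take the place of the run covariate. The runs were split from the data, and the run covariate is therefore an estimate. Signal over background was not analysed here.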
